A study of Mus musculus with 12 samples.

Results

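The clustered protocadherins of the mouse were followed here through the islands of the repressive histone mark H3K27me3 (histone H3 trimethylated at lysine 27) that overlapped their locus on chromosome 18 (mm9, 37080001 to 38005000, 925 kb). Members were chosen by position alone: each island of the 8 deposited lists that touched this window was taken, which gave 110 islands of 81097 in all. No island crossed an end of the window or a border between its segments. The window was divided on the 200 bp grid of the lists into 3 equal segments of about 308 kb. They are called the Pcdha segment (37080001 to 37388400), the Pcdhb segment (37388401 to 37696600) and the Pcdhg segment (37696601 to 38005000), after the order of the clusters in the window. Whether the borders of a segment match those of its cluster was not checked.

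Clustered protocadherins are cadherin-like adhesion proteins of the cell surface, best known from neurons, where each cell displays its own combination and uses it to tell itself from others. In the Pcdha and Pcdhg clusters, each variable exon has its own promoter and is spliced to constant exons that the whole cluster shares, whereas the Pcdhb genes consist of single exons. H3K27me3 is placed by Polycomb repressive complex 2 and marks repressed chromatin, often over developmental genes and CpG-rich promoters. RefSeq's table of GRCm38.p6 lists 58 clustered protocadherins on this chromosome, 1 of them a pseudogene (Pcdhgb8): 14 Pcdha genes (Pcdha1 to Pcdha12, then the C-type Pcdhac1 and Pcdhac2), 22 Pcdhb genes, and 22 Pcdhg entries, the pseudogene among them, that end with the C-type Pcdhgc3, Pcdhgc4 and Pcdhgc5. In that table's order, Zmat2 precedes Pcdha, Slc25a2 and Taf7 lie between Pcdhb and Pcdhg, and Diaph1 follows. Because that assembly is not mm9, no island was assigned to a single gene or exon, and the place of each cluster in the window was taken from the definition of the window, with Pcdha at its low and Pcdhg at its high coordinates.

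The lists come from chromatin immunoprecipitation and sequencing of sorted small-intestinal epithelium from mice of a mixed C57BL/6 and CD1 background. EpCAM-positive embryonic cells were taken at 2 stages of gestation, E12.5 and E14.5, named for the embryonic day. Lgr5-EGFP-high intestinal stem cells (ISC) and EpCAM-positive enterocytes (AE) came from males at postnatal day 60 that carried Lgr5EGFP-Cre-ERT, so both adult populations share that allele, and Lgr5 marks the stem cells of the crypt base. CD31-positive and CD45-positive cells were gated out of each population. No gene expression was measured in these libraries, so the sorted identities were not checked against marker genes. The labels do not say how many animals a library holds or the sex of the embryos. The AE gate, as far as the labels give it, selects EpCAM-positive cells and uses no marker specific to enterocytes. Each population has 2 ChIP libraries and 1 input. The series names the pairs biological duplicates without saying that they come from separate animals, so the spread between duplicates may be technical. The p-values measure the spread between these libraries, which also holds differences between the populations pooled in a test.

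Reads are listed only inside each library's own islands and the total depth of the libraries is unknown. Lack of an island therefore means that none was called, not that the mark was absent. Only relative size could be read, from the authors' folds, because the replicates of a population share a control. Replicate 1 was 0.928 (E12.5), 1.63 (E14.5), 1.09 (ISC) and 1.68 (AE) times the size of replicate 2. The lists covered between 60.8 Mb (ISC replicate 2) and 241 Mb (ISC replicate 1) of the genome. Inside the window the islands held a minimum of 886 ChIP reads (E12.5 replicate 1) and a maximum of 4582 (E14.5 replicate 1). Control reads ran from 18.8 to 20.7 per kb of island in the window, beside 18.0 to 23.3 per kb over all islands of the same lists.

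H3K27me3 islands lay mostly in the Pcdha and Pcdhg segments, and the Pcdhb segment between them was almost free of them. Of the 110 islands, 33 lay in the Pcdha segment, 6 in the Pcdhb segment and 71 in the Pcdhg segment. Embryonic libraries held 27 of the Pcdha islands and adult libraries 6, whereas the Pcdhg islands were divided into 38 and 33. Pcdha counts, replicate 1 first, were 1 and 8 (E12.5), 10 and 8 (E14.5), 2 and 1 (ISC) and 1 and 2 (AE). The whole lists held 6171 and 12649, 8185 and 9940, 17407 and 6668, and 8232 and 11845 islands in the same order. In all, 254.6 kb was called in at least 1 library and 670.4 kb in none. Of those 254.6 kb, E12.5 replicates 1 and 2 held 19.2% and 45.1%, beside 16.8% and 20.4% of the length called anywhere in the genome. For E14.5 the shares were 49.2% and 64.1%, beside 20.4% and 29.3%. ISC held 42.9% and 18.5%, beside 64.8% and 16.3%, and AE held 24.4% and 24.5%, beside 21.5% and 24.4%. E12.5 replicate 2 and both E14.5 libraries thus held over 2 times their genome-wide share of called length, ISC replicate 1 held less than its share, and the other lists were near theirs. Each share also depends on what the other lists call. Of the length called anywhere in the genome, 54.9% was called in only 1 library, beside 35.7% in the window. Length that must be called in 2 or more libraries therefore has less room genome-wide than here.

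**Figure D1:**
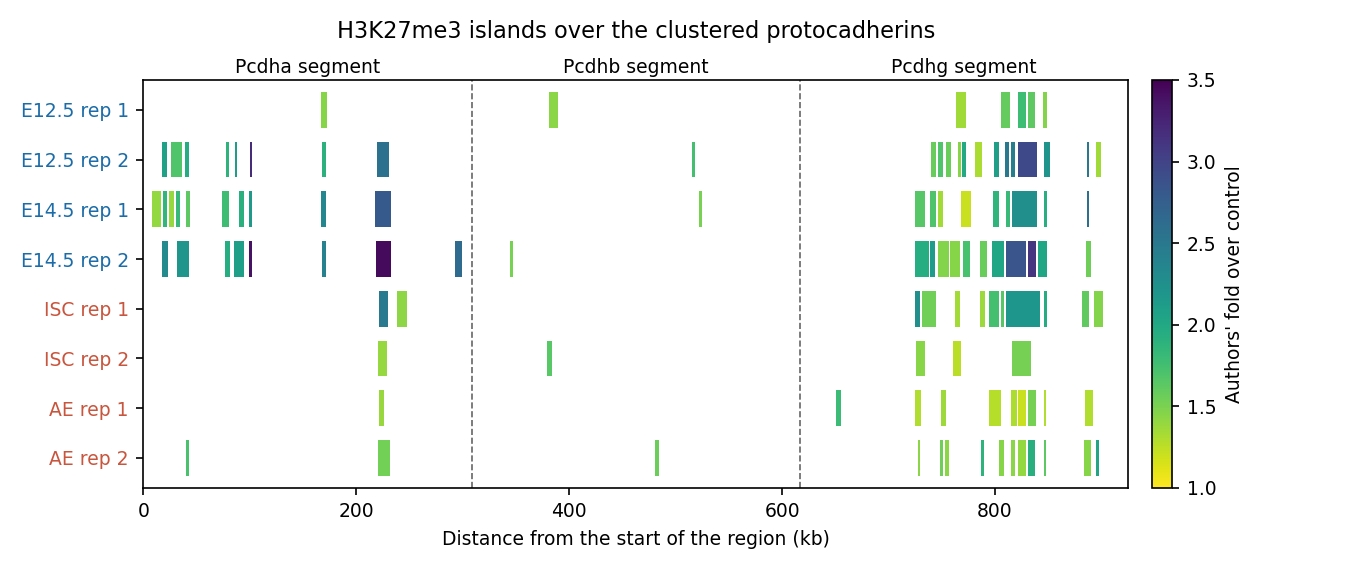
Islands of the 8 lists along the clustered protocadherin window; the horizontal axis is the distance from its start in kb, each row is a library (blue embryonic, red adult labels), the colour is the authors' fold over control, and dashed lines divide the segments. Every library has islands in the part of the Pcdhg segment past its longest gap, islands at the low end of the Pcdha segment appear in 3 embryonic libraries and 1 adult library, and the Pcdhb segment holds at most 1 island per library.

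The share of the Pcdhg segment under islands was 11.6% and 22.6% (E12.5 pair), 21.3% and 32.7% (E14.5 pair), 29.6% and 10.96% (ISC pair) and 18.5% and 14.7% (AE pair), with replicate 1 given first in each pair. The Pcdha segment was covered over 1.69% and 13.7% (E12.5 pair), 18.2% and 19.2% (E14.5 pair), 5.77% and 2.72% (ISC pair) and 1.62% and 4.41% (AE pair). The Pcdhb segment was covered over 2.60% and 0.909% (E12.5 pair), 1.103% and 0.973% (E14.5 pair), 0% and 1.62% (ISC pair) and 0% and 1.17% (AE pair). In each of the 8 libraries the Pcdhg segment was covered more than either of the others.

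Across the 8 libraries the Pcdhg segment was covered over 20.2 ± 7.99%, the Pcdha segment over 8.41 ± 7.44% and the Pcdhb segment over 1.05 ± 0.842% (mean ± SD, n = 8). The Pcdha segment fell short of the Pcdhg segment by 11.8 percentage points, a difference of the same sign in all 8 libraries (exact two-sided permutation test flipping the sign of each library's difference, adjusted p = 0.0117 over the 3 pairs of segments). The Pcdhb segment fell short of the Pcdhg segment by 19.2 points, again in all 8 libraries (exact permutation test, adjusted p = 0.0117). The Pcdha segment exceeded the Pcdhb segment by 7.37 points, in 7 of 8 libraries (exact permutation test, adjusted p = 0.0156). The exception was E12.5 replicate 1, with 1.69% against 2.60%. Counting each population once leaves 4 units, with which no exact p below 0.125 can be had, and all 3 differences then gave 0.125. The last pair was also not called among islands with a false discovery rate (FDR) of 1e-10 or less, at 4.65 points (exact permutation test, adjusted p = 0.125), or with a fold of 1.5 or more, at 6.07 points (exact permutation test, adjusted p = 0.0625).

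**Figure D2:**
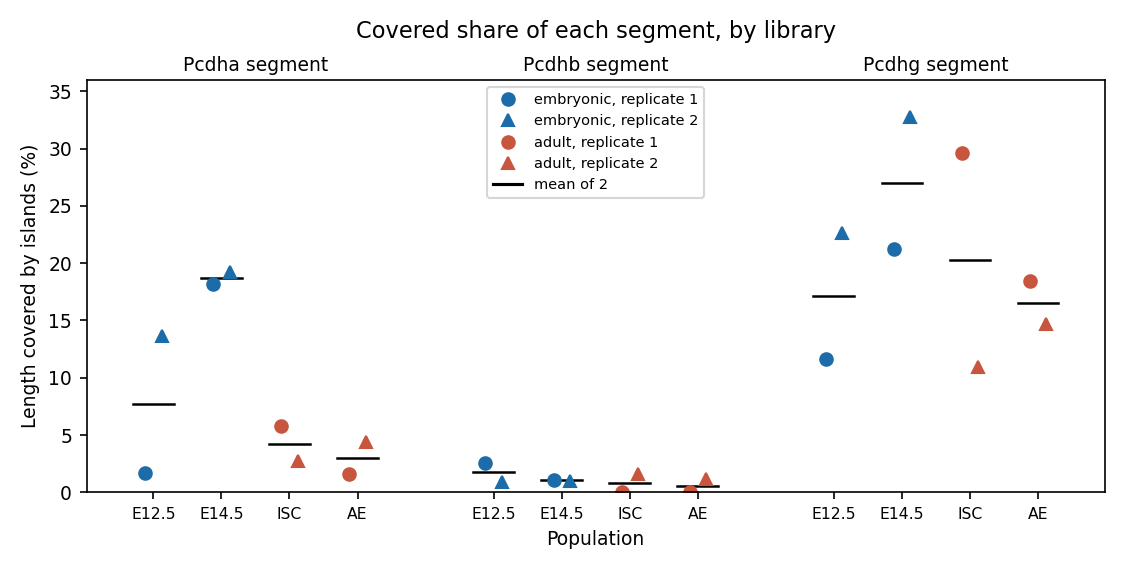
Length covered by islands, in percent of each segment, for every library (points, circles replicate 1 and triangles replicate 2, blue embryonic and red adult) with the mean of the 2 libraries of a population (bar). In the Pcdha segment the E14.5 libraries, at 18.2% and 19.2%, lie above all adult libraries, of which the highest is 5.77%, while E12.5 replicate 1 lies among the adult values at 1.69%.

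The mark covered more of the Pcdha segment in embryonic than in adult libraries on average, but the groups overlapped and the difference was not called. Embryonic libraries covered 13.2 ± 8.04% of it (SD, n = 4) and adult libraries 3.63 ± 1.83% (SD, n = 4), a difference of 9.57 percentage points (exact two-sided permutation test, p = 0.114, adjusted p = 0.343 over the window and its 3 segments). The overlap came from 1 library: E12.5 replicate 1, at 1.69%, lay below 3 of the 4 adult libraries. Without it the difference was 13.4 points and the groups did not overlap (exact permutation test, p = 0.0286, adjusted p = 0.114). That library was singled out by its own value, so this separation was fixed by the choice. The p is then the smallest that the remaining libraries allow and adds no support.

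For the Pcdhg segment, embryonic libraries covered 22.1 ± 8.65% and adult libraries 18.4 ± 8.08% (SD, n = 4 each), with values that overlapped over most of their range (exact permutation test, adjusted p = 0.514). For the Pcdhb segment the means were 1.40 ± 0.804% and 0.698 ± 0.827% (SD, n = 4 each; exact permutation test, adjusted p = 0.381). Over the whole window, the libraries covered 5.30% and 12.4% (E12.5 pair), 13.5% and 17.6% (E14.5 pair), 11.8% and 5.10% (ISC pair) and 6.70% and 6.75% (AE pair). The embryonic mean was 12.2 ± 5.13% and the adult mean 7.59 ± 2.91% (SD, n = 4 each; exact permutation test, adjusted p = 0.343). Replicates count as separate units in these tests, so the p-values speak of these libraries and do not extend to the populations.

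Lists that call more of the genome also have more room to cover this window. ISC replicate 1, with the longest list by far, covered 11.8% of the window, the highest adult value. Divided by the length of its own list, the window held 8.47, 16.3, 17.8 and 16.2 percentage points per 100 Mb called in the embryonic libraries and 4.89, 8.40, 8.38 and 7.42 in the adult libraries, in the order of populations and replicates used above. On this scale, chosen after the values had been seen, the 2 kinds of library did not overlap, with a difference of 7.43 (exact permutation test, p = 0.0286, the smallest that 4 against 4 libraries allow, adjusted p = 0.114). The lowest embryonic value, 8.47 in E12.5 replicate 1, lay only just above the highest adult value, 8.40 in ISC replicate 2. When every list was reduced to the same covered length of 60.8 Mb, the window showed a difference of 5.70 points (exact permutation test, p = 0.0286, adjusted p = 0.0571). The Pcdhg segment then differed by 7.17 points, with all embryonic libraries (11.6% to 19.1%) above all adult libraries (6.42% to 10.96%; exact permutation test, p = 0.0286, adjusted p = 0.0571), and per 100 Mb called by 9.22 (exact permutation test, p = 0.0571, adjusted p = 0.114). The Pcdha difference was 9.47 points at equal length (exact permutation test, adjusted p = 0.152) and 12.1 per 100 Mb called (exact permutation test, adjusted p = 0.114).

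The window was richer in the mark than the chromosome around it in every list. Chromosome 18 was covered over 1.82% to 7.31% per list, and the median of 2842 other windows of 925 kb across the genome lay between 0.757% and 3.09%. The window was covered to between 1.29 times (ISC replicate 1) and 4.71 times (E14.5 replicate 1) its list's average over the genome. This ratio is, up to a constant, the value per 100 Mb called that was compared above. Of the 2842 other windows, between 3.66% and 4.93% were covered at least as much as this one in E12.5 replicate 2 and both E14.5 libraries, and between 14.6% and 28.7% in the other 5 libraries. Ranks within lists of different length show no change between them.

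The most constant mark lay in the high part of the Pcdhg segment. All 8 libraries covered 9.6 kb of the window, which is 3.77% of the length called in any library there, beside a genome-wide 2.96% of called length. All of it was in the Pcdhg segment, in 2 stretches: 37901801 to 37909200 (7.4 kb, 821.8 to 829.2 kb from the start of the window) and 37911401 to 37913600 (2.2 kb). The island over the first of these reached from 37901801 to 37909400 both in E12.5 replicate 1 and in AE replicate 1, with identical borders, and from 37901601 to 37909200 in AE replicate 2. In ISC replicate 1 it was a single island of 31.2 kb (37890601 to 37921800), the longest in the window.

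ChIP and control reads in the islands over the first stretch were 160 and 154 in E12.5 replicate 1, 664 and 359 in E12.5 replicate 2, 1183 and 564 in E14.5 replicate 1, and 694 and 428 in E14.5 replicate 2. In the adult they were 1070 and 624 in ISC replicate 1, 384 and 351 in ISC replicate 2, 310 and 175 in AE replicate 1, and 215 and 176 in AE replicate 2. The islands differ in length, so the counts themselves do not rank the libraries. The authors' folds over control, which are scaled by library size, were 1.79 and 2.95 (E12.5 pair), 2.25 and 2.84 (E14.5 pair), 2.19 and 1.52 (ISC pair) and 1.21 and 1.41 (AE pair). AE had the lowest folds here, and E12.5 replicate 1 lay below ISC replicate 1.

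A neighbouring stretch at 37925601 to 37928200 (2.6 kb) was covered in 7 of 8 libraries, ISC replicate 2 being the exception. Its low border was the most repeated in the window: 5 libraries began an island exactly at 37925601, and E12.5 replicate 1 began one a grid step lower, at 37925401. The 2 AE libraries gave the same island, 37925601 to 37928200, with 119 and 89 ChIP reads and the same 63 control reads. Their folds were 1.29 and 1.63.

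The Pcdha segment held an almost constant island of its own. The stretch from 37301401 to 37306400 (5 kb, 221.4 to 226.4 kb from the start) was covered in 7 of 8 libraries, with no island in E12.5 replicate 1. ChIP over control reads were 339 over 211 in E12.5 replicate 2, 580 over 222 and 448 over 228 for the E14.5 pair, 311 over 160 and 160 over 159 for the ISC pair, and 234 over 116 and 253 over 190 for the AE pair. The folds were 2.56 in E12.5 replicate 2, 2.81 and 3.44 for the E14.5 pair, 2.48 and 1.40 for the ISC pair, and 1.38 and 1.54 for the AE pair. The E14.5 islands were the longest, at 14.2 and 14.4 kb, and reached beyond the adult islands of 5 to 11 kb. In both E14.5 lists this island had the highest fold in the window, and also in ISC replicate 1.

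A second Pcdha stretch was found by searching for length called in every embryonic and no adult list, so its separation of them was fixed by the search. From 37248201 to 37251600 (3.4 kb, 168.2 to 171.6 kb from the start) every embryonic library and no adult library had an island. In the order E12.5 replicates 1 and 2, then E14.5 replicates 1 and 2, these islands held 106, 104, 217 and 131 ChIP reads. ChIP reads divided by control reads, before scaling by library size, came to 0.848, 1.195, 2.19 and 1.36, so the E12.5 replicate 1 island alone had fewer ChIP than control reads. The authors' scaled folds were 1.46, 1.91, 2.35 and 2.39. A second stretch of this kind, in the Pcdhg segment, ran from 37849601 to 37852400 (2.8 kb), with folds of 1.36, 1.99, 1.21 and 1.73. Together they came to 6.2 kb, 2.44% of the length called in the window, beside 0.38% genome-wide. These 2 shares are not on an equal footing, because more of the genome-wide length was called in only 1 library. The reverse, islands in the 4 adult lists and in no embryonic list, came to 0 kb in the window, beside 1.2% of called length genome-wide.

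**Figure D3:**
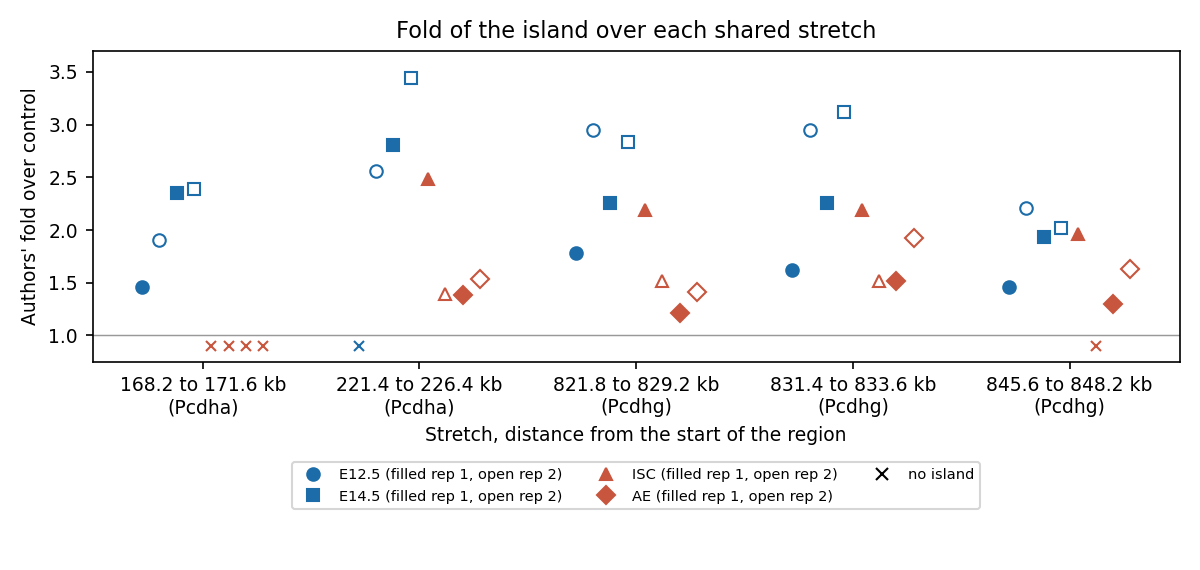
The authors' fold over control (vertical axis) of the longest island over each of 5 stretches (horizontal axis, distance from the start of the window in kb), by library; crosses below the line at 1 mark libraries with no island. The stretch at 168.2 to 171.6 kb was picked because only embryonic libraries have an island there. Its 4 embryonic folds range from 1.46 to 2.39, and the 4 adult libraries have no island. At 221.4 to 226.4 kb E12.5 replicate 1 has none.

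The low part of the Pcdha segment, the 102.4 kb up to that segment's longest gap without islands, had islands in 3 embryonic libraries and 1 adult library. It held 6 islands over 26.8 kb in E12.5 replicate 2, 8 over 37 kb in E14.5 replicate 1 and 5 over 34.6 kb in E14.5 replicate 2. ISC replicates 1 and 2, AE replicate 1 and E12.5 replicate 1 had 0 there, and AE replicate 2 had 1 island of 2.6 kb (37120001 to 37122600, fold 1.72). In these 3 embryonic libraries the island of highest fold within the 102.4 kb lay at the same place. It spanned 37179601 to 37182000 in E14.5 replicate 1 (92 ChIP and 46 control reads, fold 2.15), and lay within 1 kb of the same borders in E14.5 replicate 2 (fold 3.39) and in E12.5 replicate 2 (fold 3.19). The limits of this low stretch were chosen after its islands had been seen, and no test was run on it. No genome-wide share of length with this pattern is given beside it.

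As a share of the length covered in the window, the Pcdha segment held 10.6% and 36.8% (E12.5 pair), 44.9% and 36.3% (E14.5 pair), 16.3% and 17.8% (ISC pair) and 8.06% and 21.8% (AE pair). The Pcdhg segment held the greater share in every list, from 52.4% in E14.5 replicate 1 to 91.9% in AE replicate 1.

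The Pcdhb islands were few, short and shared by hardly any libraries. No library had more than 1, and ISC replicate 1 and AE replicate 1 had 0. They spanned 2.8 to 8 kb, with folds between 1.44 (E12.5 replicate 1, 37461201 to 37469200) and 1.74 (E12.5 replicate 2, 37595001 to 37597800). Of the 23 kb called in the segment, 20.2 kb was called in 1 library and 2.8 kb in 2, namely E12.5 replicate 1 and ISC replicate 2. The longest gap free of islands in every list was 125.8 kb (37605201 to 37731000), which ran from the Pcdhb segment into the Pcdhg segment, and the next was 91.6 kb (37469201 to 37560800). Of the gaps that end at islands on both sides, the longest was 64.4 kb in the Pcdha segment (37182401 to 37246800) and 69 kb in the Pcdhg segment (37735601 to 37804600). Past the latter lay all Pcdhg islands but 1, that of AE replicate 1 at 37731001 to 37735600 (126 ChIP and 48 control reads, fold 1.799).

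**Figure D4:**
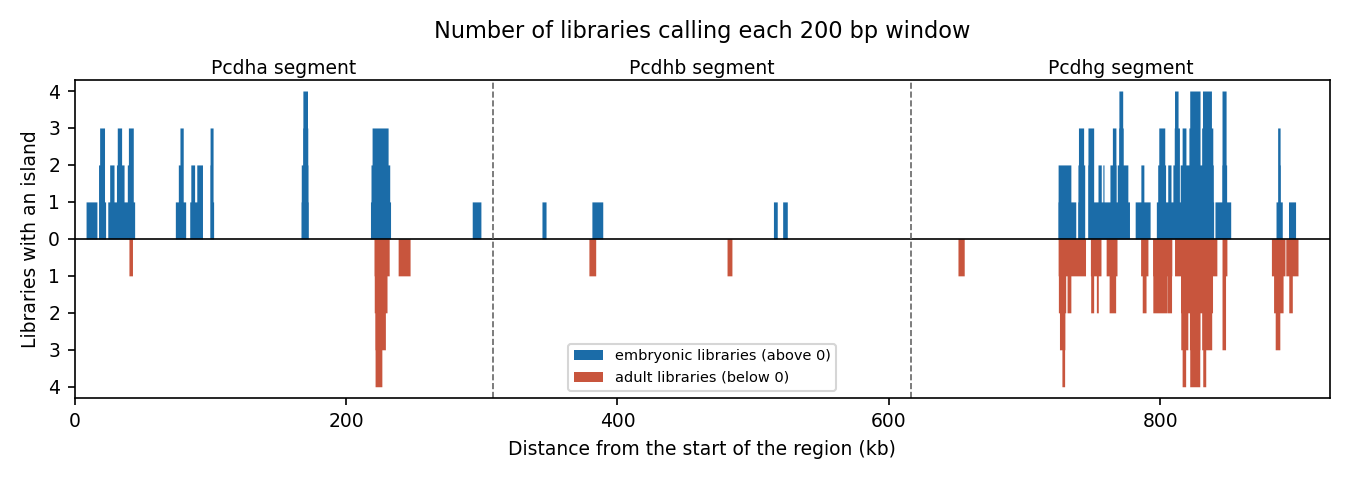
Number of libraries with an island in each 200 bp window (vertical axis) along the locus (horizontal axis, kb from its start), embryonic above the line and adult below it. All 8 libraries coincide only in the Pcdhg segment, all 4 embryonic libraries also at 168.2 kb in the Pcdha segment, and no window of the Pcdhb segment is called in more than 2 libraries.

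The developmental order of the populations was followed by counting length called in both libraries of one population and neither of the other. With 2 libraries against 2, no exact p below 0.333 can be had, so these lengths are given without a test. Of the genome-wide called length, 54.9% was called in only 1 library, beside 35.7% in the window. The genome-wide shares given beside these lengths are therefore not on an equal footing with those of the window. From E12.5 to E14.5, 24.6 kb was gained, 9.66% of the length called in the window beside 4.84% genome-wide, and 1.6 kb was lost, 0.628% beside 0.687%. The Pcdhg segment took 17 kb of the gain and the Pcdha segment 7.6 kb. The longest gain was 37804801 to 37814200 (9.4 kb), where E12.5 had no island and the E14.5 folds were 1.66 and 1.95. Of this stretch, 83.0% and 89.4% was under islands in ISC replicates 1 and 2, and 57.4% and 21.3% in AE. The longest loss was 1 kb (37889401 to 37890400). The gain was 71 kb without E12.5 replicate 2, 69.2 kb without E14.5 replicate 1 and 42.8 kb without E14.5 replicate 2. The loss was 19.8 kb without E12.5 replicate 1, 12 kb without E12.5 replicate 2 and 4.2 kb without E14.5 replicate 2. A single library then suffices for its population.

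Between E14.5 and adult stem cells only losses were counted. The window lost 39.6 kb, 15.6% of its called length beside 3.36% genome-wide, and gained 0 kb, beside 4.84% genome-wide. ISC replicate 1 held 64.8% of the genome-wide called length but 42.9% of that in the window, so these shares rest on unlike totals. The Pcdha segment lost 28.4 kb, which is 32.2% of all length called in it, the Pcdhg segment 11.2 kb and the Pcdhb segment 0 kb. The longest lost stretches were 37849601 to 37856200 (6.6 kb, E14.5 folds 1.21 and 1.73) and 37826601 to 37831000 (4.4 kb, folds 1.35 and 1.47) in the Pcdhg segment, and 37170001 to 37174200 (4.2 kb, folds 1.91 and 2.10) in the Pcdha segment. Of the 39.6 kb, AE had 32.8 kb in neither library and 2.4 kb in both, and E12.5 had 6.2 kb in both and 11.2 kb in neither.

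This count depends on the lists of both populations. ISC replicate 2 called only 5.10% of the window, which limits what could be gained. Without it the gain was 28.2 kb and the loss 41.8 kb. Leaving out a library can only lengthen a gain or a loss or leave it unchanged. That the loss persisted was therefore fixed in advance. Without ISC replicate 1 the gain was 5.8 kb and the loss 65.2 kb, without E14.5 replicate 1 they were 1.2 and 80.2 kb, and without E14.5 replicate 2 they were 4.8 and 64 kb. Among islands at an FDR of 1e-10 or below, 15.4 kb counted as lost.

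From stem cells to enterocytes 7.2 kb was gained, 2.83% of the called length beside 0.705% genome-wide, and 10 kb was lost, 3.93% beside 3.2%. Both lay wholly in the Pcdhg segment. Of the 7.2 kb gained, E14.5 had 2.4 kb in both libraries and 0.6 kb in neither, and E12.5 had 4.4 kb in neither. The longest gain was 37968201 to 37970600 (2.4 kb, AE folds 1.30 and 1.46), and the longest loss 37842401 to 37847200 (4.8 kb, ISC folds 1.35 and 1.26). An island of ISC replicate 1 ended at 37968200, where the longest gain began. E14.5 replicates 1 and 2 covered 8.33% and 75% of that gain. The AE libraries had no islands in the lost stretch, whereas both E12.5 libraries and E14.5 replicate 2 covered at least part of it. The gain was 18.6 kb without ISC replicate 1, 17.4 kb without AE replicate 1 and 15.4 kb without AE replicate 2. The loss was 49.2 kb without ISC replicate 2 and 19.4 kb without ISC replicate 1. With an FDR of 1e-10 or less, or a fold of 1.5 or more, the gain was 0 kb.

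Island borders in the window recurred between lists in 7 of 8 libraries more often than over the genome, without a test of the difference. Of 220 island borders, 156 (70.9%) lay within 1 kb of a border of the same side in another library, beside 44.0% of all borders in the 8 lists. In E12.5 replicate 1 the share was 85.7% in the window and 33.7% over its own list, and it was above that of the own list in 7 of 8 libraries. The exception was ISC replicate 2, with 50% in the window and 51.5% over its list. Islands covered more of this window than of the genome at large in every list, and how far that density moves the share was not tested. At 26 positions, borders of at least 3 libraries fell within 1 kb of each other. No genome-wide count of such positions is given beside this, so it does not set the window apart. In the Pcdha segment, the 3 embryonic libraries other than E12.5 replicate 1 shared both borders of islands at 37097601 to 37102800 and at 37179601 to 37182400. The 4 adult libraries shared a low border at 37300601 to 37301401, and the embryonic islands over the same stretch began lower, at 37299201 in E12.5 replicate 2 and at 37298001 and 37298401 in the E14.5 libraries.

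The 2 libraries of a population overlapped more in the window than over the genome in each of the 4 pairs, though this was not tested. The Jaccard index (shared length over joint length) was 0.232 in the window and 0.202 genome-wide between the E12.5 libraries, and 0.516 and 0.447 between the E14.5 libraries. Between the ISC libraries it was 0.308 and 0.198, and between the AE libraries 0.436 and 0.346. Every list covered this window more densely than the genome, and how far that moves the index was not tested. The E12.5 replicates shared the least of the window: replicate 1 called 49 kb in 7 islands and replicate 2 called 114.8 kb in 22.

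Enrichment inside the islands of the window was close to that of other islands in the same lists. ChIP reads summed over the window's islands, divided by control reads and by the same ratio of all islands of that list, gave 1.08 and 1.06 (E12.5 pair), 1.05 and 1.06 (E14.5 pair), 1.12 and 0.976 (ISC pair) and 0.906 and 1.04 (AE pair). Only ISC replicate 2 and AE replicate 1 were below 1. By segment, the Pcdha islands stood at 1.03, 1.07, 1.096 and 1.24 times their lists in the embryonic libraries, and at 1.19, 0.939, 0.931 and 1.04 times in the adult libraries. The Pcdhg islands ranged from 0.903 times (AE replicate 1) to 1.11 times (ISC replicate 1). The Pcdhb islands, 1 per library, ranged from 0.730 times (E14.5 replicate 2) to 1.11 times (ISC replicate 2). The highest fold of any island in the window was 3.44, in E14.5 replicate 2 at 37298401 to 37312800 in the Pcdha segment, and the lowest 1.21, in E14.5 replicate 1 and AE replicate 1 in the Pcdhg segment.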

How the data were processed

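H3K27me3 islands of 8 ChIP libraries were used; the 4 inputs enter only as control columns. Reads were processed on mm9 with SICER 1.1, SAMtools 1.2, Bowtie 1.1.2 and bcl2fastq 1.8.4, named without roles in the submitters' processing notes. Per the labels, chromatin fragments were about 350 to 700 bp. The deposited lists have no header. Read from their values, they hold whole-number read counts of ChIP and control per island as deposited, p-value and FDR (both the authors' own, FDR at most 0.01), and the authors' fold, a ratio scaled by library size. SICER joins neighbouring enriched windows, so island ends are accurate to 200 bp at best. Islands were called per replicate, and both replicates of a population against the same control: control counts were identical in all intervals they share.

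Islands were laid onto 200 bp windows in numpy 2.4.6 under Python 3.11.15 (plots: matplotlib 3.10.9), and coordinates are 1-based. Each library gave 1 percentage per segment. Exact permutation tests divided the libraries or flipped signs, with Benjamini-Hochberg adjustment and a threshold of 0.05, and were tested on simulated lists. Genome-wide shares are of all 200 bp windows called in at least 1 library (1860461). Alternatives were an FDR of 1e-10 or less, a fold of 1.5 or more, equal covered length (best FDR first), islands wholly inside, inner borders moved by 20 kb, a replicate block, population means, and each library left out. Stretches were named by fixed rules: the longest covered in most libraries, gained, lost, of embryonic or adult libraries alone, or free of islands, each library's longest island, and borders shared by 3 or more libraries. The window, segments and rules were chosen with earlier results of these data known. No sequence is shown, and no gene coordinates were used.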

Additional observations from a re-analysis of the deposited data

Results flagged for a closer look

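The highest embryonic value in the Pcdhb segment, 2.60% in E12.5 replicate 1, stood far from the other 3 embryonic libraries, which lay between 0.909% and 1.103%: the gap was 0.885 of the whole range, above Dixon's 95% critical value for 4 samples. The value is a single island of 8 kb with a fold of 1.44. Chance alone marks about 1 in 20 such groups, and 8 groups were examined. In the Pcdha segment the same library was the lowest of the embryonic libraries at 1.69%, with a gap of 0.685 of the range, under that critical value.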

How the results depend on the processing

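The shortfall of the Pcdha and Pcdhb segments against the Pcdhg segment kept its direction and call under each alternative other than population means (-11.8, 7.37 and -19.2 percentage points for Pcdha minus Pcdhg, Pcdha minus Pcdhb and Pcdhb minus Pcdhg, exact p 0.125 each). Pcdha minus Pcdhb was also not called with an FDR of 1e-10 or less (4.65) or a fold of 1.5 or more (6.07). With 1 library left out these differences ranged from -13.1 to -10.1, 5.82 to 8.55 and -20.7 to -17.4, and all stayed called. No embryonic minus adult difference was called under any alternative; with 1 library left out they ranged from 2.83 to 6.94 (window), 7.57 to 13.4 (Pcdha), 0.297 to 1.006 (Pcdhb) and 0.0703 to 7.37 (Pcdhg). With an FDR of 1e-10 or less, the E12.5 to E14.5 loss was 0 kb, the E14.5 to ISC loss 15.4 kb and the ISC to AE gain 0 kb. With a fold of 1.5 or more, the first was 1 kb and the last 0 kb, and at equal covered length the first was 4.4 kb. With 1 library left out, gains ranged from 25.8 to 71 kb, 1.2 to 28.2 kb and 7.2 to 18.6 kb over the 3 steps and losses from 2.2 to 19.8 kb, 41.8 to 80.2 kb and 13 to 49.2 kb. The cause was not tested where values moved, beyond the smaller number of libraries or islands. The replicate block, in which no p below 0.0556 is possible, left the embryonic minus adult differences uncalled at 4.63, 9.57, 0.698 and 3.63 (adjusted p 0.444, 0.444, 0.444 and 0.556). Whether replicate numbers pair the libraries could not be decided. The deviations of replicate 1 correlated between -0.594 and 0.433 over the 6 pairs of populations, and 3 exceeded 0.1. Those 3 were the pairs without ISC, and every pair with ISC was negative. Replicate 1 has the longer list in ISC and the shorter list in each other population, so list length and pairing cannot be told apart here. Total depth is unknown, which limits any reading of a missing island.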
